A study of Mus musculus with 6 samples.

Results

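The genes described here are Fadd, Tradd, Casp8, Cflar, Ripk1, Ripk3, Mlkl and Casp4, which encode death domain adaptors, caspases, a caspase-like inhibitor and the kinase and pore-forming proteins of necroptosis. They were chosen by gene symbol rather than by a cut on their values, though earlier results of these data were known. They make up 8 of the 22061 genes with a value in the series. Each gene is represented by its probe set with the highest mean over the 6 arrays. Only Cflar has more than 1 probe set, namely 3.

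RNA was measured on Affymetrix whole-transcript arrays in MCT cells, a single proximal tubular epithelial line that was originally taken from the renal cortex of SJL mice. Treated cells received 100 ng/mL TWEAK for 6 h (3 arrays), and the control cells received vehicle (3 arrays, also labelled 6 h). Cells were rested overnight in serum-free medium before stimulation, per the labels' protocols. The series describes 3 independent experiments, so p-values measure the spread between these arrays. Values are log2 expression as the authors deposited it, and each probe set has its own brightness, so levels are set against the median gene only as a rough mark of dim probe sets.

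The median log2 value over all probe sets lay between 6.12 and 6.18 on the arrays, and precision is limited by having 3 arrays per group. Of 10 proximal tubule markers, 5, among them Lrp2, Slc5a2, Aqp1 and Hnf4a, were brighter than the median gene, as were 5 of 7 epithelial markers. Cubn, Slc34a1, Slc22a6, Ggt1 and Anpep were not brighter than it, nor were Cdh1 and Epcam of the epithelial list. None of 4 endothelial markers was brighter than the median gene, and 1 of 6 leukocyte markers (Cd68), 1 of 6 distal nephron and podocyte markers (Aqp2) and 3 of 5 fibroblast and pericyte markers (Col1a1, Col1a2 and Acta2) were. Limma called 0 of the 38 markers at a Benjamini-Hochberg adjusted p under 0.05, where 3.00% of all genes were called. An unadjusted p under 0.05 was found for 5, where 21.3% of all genes had one. These were 4 of the 10 proximal tubule markers and 1 of the 4 endothelial markers. The mean log2 level of the fibroblast and pericyte markers was 6.43 to 6.45 on the TWEAK arrays and 6.24 to 6.40 on the control arrays, and that of the endothelial markers 5.25 to 5.37 under TWEAK and 5.11 to 5.22 in control cells. The mean levels of the other 4 marker lists overlapped between the groups. Within the proximal tubule list, Lrp2 averaged 8.13 under TWEAK and 8.78 in control cells, and Slc5a2 8.36 and 7.94. The part of any marker list in the results was not tested.

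Death receptors of the TNF receptor family recruit adaptors through a protein fold called the death domain. Tradd binds TNF receptor 1 and brings in Ripk1, while Fadd joins receptors or Ripk1 to Casp8, the initiator caspase of this route. Cflar encodes c-FLIP, a relative of caspase-8 that lacks protease activity and tunes its activation. Where caspase-8 is not active, Ripk1 and Ripk3 can assemble into a complex in which Ripk3 phosphorylates Mlkl, which then permeabilises the plasma membrane, a lytic death known as necroptosis. Casp4, also called caspase-11 in mice, senses cytosolic lipopolysaccharide and cleaves gasdermin D, which leads to pyroptosis. Fn14, the TWEAK receptor encoded by Tnfrsf12a, has no death domain of its own. Necroptosis and other forms of regulated cell death have been studied in kidney tubules as a feature of acute kidney injury.

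After 6 h of TWEAK, Fadd was the only gene of the 8 that passed the test, and it rose 1.33-fold. Casp8 had the largest difference of the 8, at 0.642 times the control level, but did not pass. Cflar, Ripk3, Mlkl, Tradd, Ripk1 and Casp4 all had differences between -0.16 and 0.15 on the log2 scale. The median difference of the 8 genes was 0.00, with 4 positive and 4 negative values, against 0.03 over all genes.

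The background of these calls is as follows. At limma's Benjamini-Hochberg adjusted p under 0.05, 661 of 22061 genes passed, which is 3.00% of those tested, 283 of them higher (1.28%) and 378 lower (1.71%) under TWEAK. Higher genes were 42.8% of these calls, 59.1% with each array centred on its median and 72.6% after cyclic loess. At an unadjusted p under 0.05, 2 of the 8 genes passed, where 21.3% of all genes did: Fadd was higher (8.15% of all genes) and Casp8 lower (13.1%). The TWEAK arrays lay wholly above the control arrays for 1 of the 8 genes, Fadd, and wholly below them for 0. Over all genes these shares were 12.9% above and 13.5% below, or 26.4% together. A single gene of 8 is too few to set the group apart from this background.

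**Figure D1:**
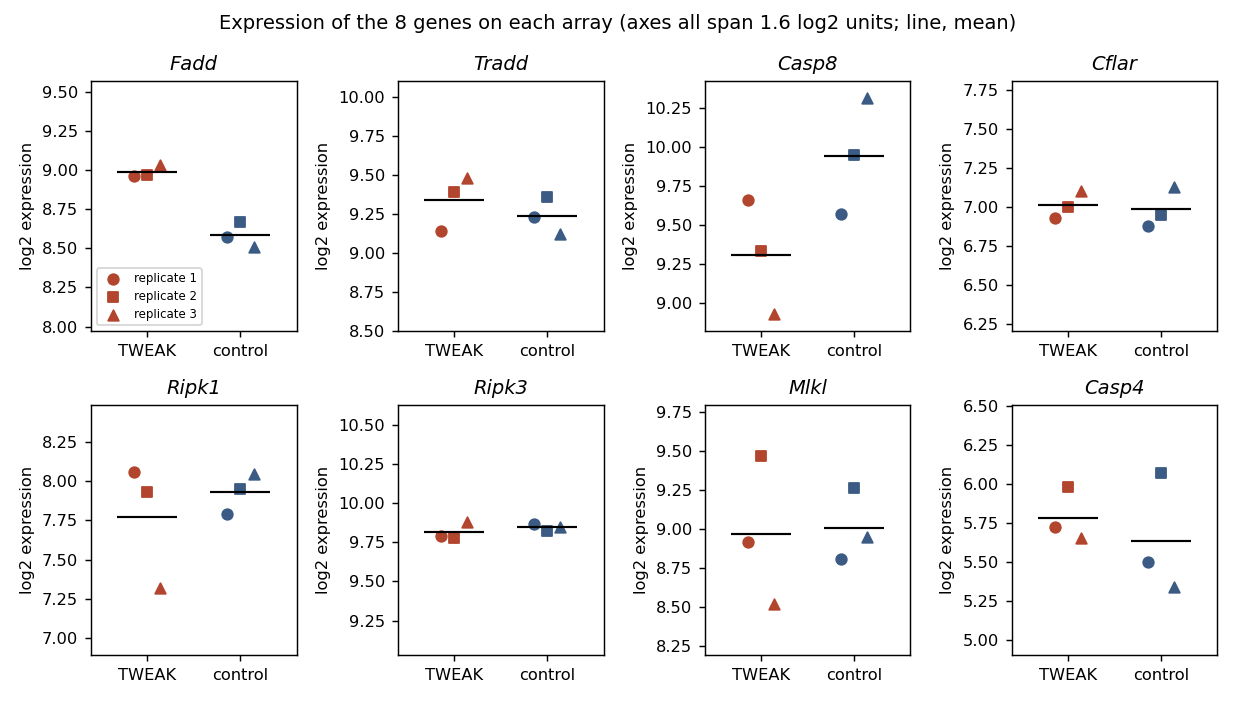
Log2 expression (vertical axis) of the 8 genes on the 3 TWEAK arrays (left in each panel) and the 3 control arrays (right), with a marker shape for each replicate number and a line at the group mean. The groups do not overlap for Fadd, with TWEAK values from 8.96 to 9.03 and control values from 8.51 to 8.67. They overlap for the other genes.

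Fadd, the adaptor that carries a death domain and a death effector domain, had log2 values of 8.96, 8.97 and 9.03 on the TWEAK arrays and 8.57, 8.67 and 8.51 on the control arrays. All TWEAK values were above all control values, and they lay within 0.07 of each other. Its mean was 8.99 ± 0.04 under TWEAK and 8.58 ± 0.08 in control cells (SD, n = 3 each). The difference of 0.41 (SE 0.08, 95% interval 0.22 to 0.59, or 1.17-fold to 1.51-fold) passed in limma, with a Benjamini-Hochberg adjusted p of 0.0444. These are levels in a bulk extract, so a change in the number of cells that express a gene and a change in RNA per cell cannot be told apart.

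The Fadd call lay close to the threshold, ranking 490 by p among all genes. In the authors' deposited table, which adjusts over all probe sets, its false discovery rate was 0.0662 and its ratio 1.33. The size hardly moved when arrays were left out, ranging from 0.37 to 0.45. The call itself was kept without control 1 (limma, Benjamini-Hochberg adjusted p = 0.0465) and lost without TWEAK 1 (0.114), TWEAK 2 (0.0758), TWEAK 3 (0.130), control 2 (0.134) or control 3 (0.120). It was also lost with a variance trend and robust settings (0.0537). Over all genes limma called 661 with all arrays, 1876 without control 1 and 881 with the trend and robust settings. The count was 1 without TWEAK 1, 219 without TWEAK 2, 38 without TWEAK 3, 16 without control 2 and 63 without control 3.

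Fadd's promoter is shown because this was the only one of the 8 genes that passed the test with all arrays. That of Casp4 is shown because, of the genes with a promoter window, it alone had a match to the kappaB consensus. This consensus is the DNA element bound by NF-kB. RefSeq promoter windows of GRCm38.p6, from 250 bases before to 50 bases after the start site, were found for 7 of the 8 genes (9 windows), all but Tradd. Capitals mark matches to the kappaB consensus on either strand, and both sequences run 5′ to 3′ on the gene's own strand. The Fadd window is chr7:144582392-144582691, minus strand, and the Casp4 window shown is chr9:5308599-5308898, plus strand.
Fadd: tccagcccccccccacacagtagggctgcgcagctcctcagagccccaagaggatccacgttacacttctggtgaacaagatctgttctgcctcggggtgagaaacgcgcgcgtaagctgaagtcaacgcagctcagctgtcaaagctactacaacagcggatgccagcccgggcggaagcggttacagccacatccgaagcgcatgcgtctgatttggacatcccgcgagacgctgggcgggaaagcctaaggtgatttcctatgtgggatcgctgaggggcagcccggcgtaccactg
Casp4: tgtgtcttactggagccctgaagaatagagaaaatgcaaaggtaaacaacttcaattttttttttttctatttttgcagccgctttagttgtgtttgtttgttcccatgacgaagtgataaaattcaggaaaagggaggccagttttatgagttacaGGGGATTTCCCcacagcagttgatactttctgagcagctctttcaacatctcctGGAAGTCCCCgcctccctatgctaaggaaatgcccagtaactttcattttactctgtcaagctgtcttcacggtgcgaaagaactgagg

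The Casp4 window shown held 3 matches. Of these, GGGGATTTCC (positions -93 to -84 from the start site) and GGGATTTCCC (-92 to -83) overlap each other. The match GGAAGTCCCC (-39 to -30) lies on the opposite strand. A further Casp4 window, set by another start site, held the same matches at -104 to -95, -103 to -94 and -50 to -41. Of all 32851 promoter windows, 8.46% held at least 1 match to this consensus. A second motif, GAAANNGAAA on both strands, which resembles the element of interferon-responsive promoters, was found in 3.44% of all windows. It occurred in a window of Ripk1 (GAAATCGAAA, positions -5 to 5) and in that of Cflar (TTTCGGTTTC, positions 7 to 16, on the opposite strand). A match describes letters in a window and is not a measured binding site, and the genes whose windows hold these motifs, Casp4, Ripk1 and Cflar, did not pass the test for a change under TWEAK.

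Tradd, the TNF receptor 1 adaptor, had log2 values of 9.14, 9.39 and 9.48 on the TWEAK arrays and 9.23, 9.36 and 9.12 on the control arrays. The groups overlapped, with TWEAK 1 near the low end of both. Tradd averaged 9.34 ± 0.18 under TWEAK and 9.23 ± 0.12 in control cells (SD, n = 3 each), which gave a difference of 0.10 (SE 0.11) and a Benjamini-Hochberg adjusted p of 0.664 in limma. The 95% interval ran from 0.898-fold to 1.29-fold, so a Tradd change of the size seen for Fadd lies just outside it.

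Casp8, the initiator caspase, had log2 values of 9.66, 9.33 and 8.93 on the TWEAK arrays and 9.57, 9.95 and 10.31 on the control arrays. TWEAK 1 lay above control 1, so the groups overlapped, and the other TWEAK values were below every control value. The mean was 9.30 ± 0.36 under TWEAK and 9.95 ± 0.37 in control cells (SD, n = 3 each). The difference of -0.64 (SE 0.22) had an unadjusted p of 0.0203 in limma and did not pass after Benjamini-Hochberg adjustment (adjusted p = 0.144). Its 95% interval, which is not adjusted for the number of genes tested, ran from 0.450-fold to 0.915-fold.

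The Casp8 difference ranked 983 by size but 3121 by p among the 22061 genes. It kept its sign in all 14 alternatives, from -0.83 without control 1 to -0.45 without TWEAK 3. Some of these settings change only the test or the other genes, so they could not move the difference from -0.64. Limma called Casp8 in 1 of the 14, with array weights (Benjamini-Hochberg adjusted p = 0.0452). In that setting control 2 alone carried a weight of 5.6 while the other arrays had 0.53 to 0.945.

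Cflar, the c-FLIP gene, had log2 values of 6.93, 7.0 and 7.10 on the TWEAK arrays and 6.88, 6.95 and 7.13 on the control arrays for its brightest probe set. The groups interleaved. The means were 7.01 ± 0.09 under TWEAK and 6.99 ± 0.13 in control cells (SD, n = 3 each), and the difference of 0.03 (SE 0.10) did not pass (limma, Benjamini-Hochberg adjusted p = 0.912). The 95% interval was 0.874-fold to 1.19-fold.

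This brightest Cflar probe set, 10497931, is open to doubt as a measure of the gene. Of the 20 probe sets with the nearest identifiers whose gene has a place in the RefSeq table of GRCm38.p6, 0 belonged to genes on the chromosome of Cflar, and 18 belonged to genes on 1 other chromosome. For the other Cflar probe sets, 10346551 and 10346562, 19 of 20 such neighbours lay on the chromosome of Cflar. The file itself gives no position for any probe set, so whether 10497931 reads transcripts of the Cflar locus was not tested. Probe set 10346551 had 6.80, 6.73 and 6.79 under TWEAK and 6.59, 6.49 and 6.89 in control cells, a difference of 0.12 (SE 0.11, 95% interval -0.15 to 0.38). Probe set 10346562 had 5.59, 5.49 and 5.39 under TWEAK and 5.53, 5.35 and 5.82 in control cells, a difference of -0.07 (SE 0.13, 95% interval -0.38 to 0.23). In each of these the control arrays enclosed the TWEAK arrays, and neither passed limma's test over all probe sets (Benjamini-Hochberg adjusted p = 0.635 and 0.809). No Cflar probe set therefore showed a change past the test, and the sign differed among them.

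**Figure D2:**
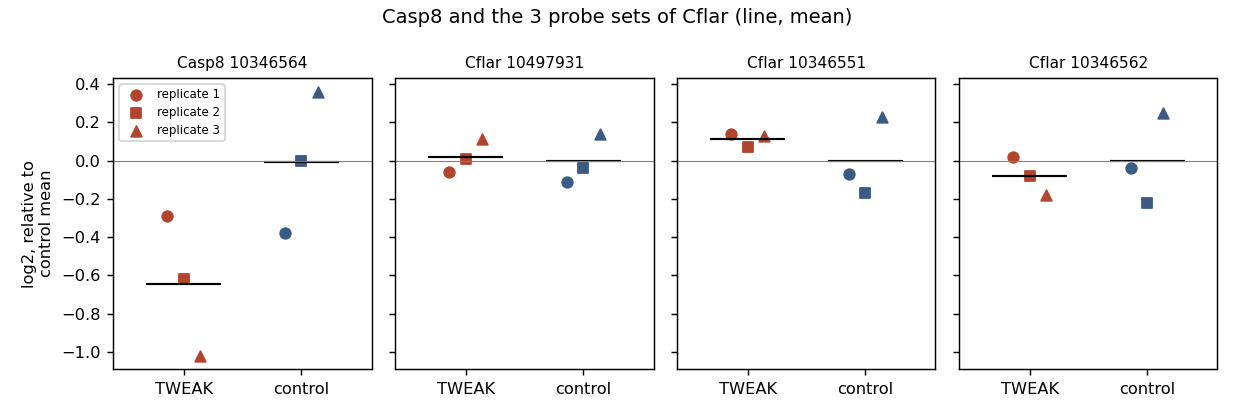
Log2 expression of Casp8 and of the 3 Cflar probe sets on each array, relative to the control mean of that probe set (vertical axis), for TWEAK (left) and control (right) arrays, with a line at the group mean. Casp8 lies lower by 0.64 on average under TWEAK but with wide spread in both groups, and the Cflar probe sets differ by 0.03, 0.12 and -0.07.

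Because c-FLIP and caspase-8 pair with each other, the log2 difference of Cflar minus Casp8 was taken within each array. It was -2.72, -2.33 and -1.83 under TWEAK and -2.69, -3.0 and -3.18 in control cells, and the groups overlapped. Their difference was 0.67, with a two-sided exact permutation p of 0.200 (n = 3 each), where 0.1 is the smallest p that 3 against 3 arrays allow. With Cflar probe set 10346551 in its place the difference was 0.76, and with 10346562 it was 0.57 (exact permutation p = 0.1 and 0.200). With 10346551 the p was the smallest possible, as the TWEAK arrays lay wholly above the control arrays. A test of 3 against 3 arrays cannot give a p under 0.1, so it could not decide whether the genes changed unequally.

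Ripk1, the kinase and scaffold of the TNF receptor 1 complex, had log2 values of 8.06, 7.93 and 7.32 on the TWEAK arrays and 7.79, 7.95 and 8.05 on the control arrays. TWEAK 3 stood below every other array, and the other values overlapped. Ripk1 averaged 7.77 ± 0.39 under TWEAK and 7.93 ± 0.13 in control cells (SD, n = 3 each). The difference of -0.16 (SE 0.18, 0.668-fold to 1.2-fold) did not pass limma's test (Benjamini-Hochberg adjusted p = 0.682), and it was 0.06 without TWEAK 3.

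Ripk3, the kinase that phosphorylates Mlkl, was the steadiest of the 8. It had log2 values of 9.79, 9.78 and 9.88 on the TWEAK arrays and 9.87, 9.82 and 9.85 on the control arrays, which overlapped. The mean was 9.81 ± 0.05 under TWEAK and 9.85 ± 0.03 in control cells (SD, n = 3 each), a difference of -0.03 (SE 0.08) at a limma Benjamini-Hochberg adjusted p of 0.860. With a 95% interval of 0.865-fold to 1.11-fold, a Ripk3 change as large as that of Fadd, 1.33-fold, lies outside the interval in either direction.

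Mlkl, the effector of necroptosis, had log2 values of 8.92, 9.47 and 8.52 on the TWEAK arrays and 8.81, 9.26 and 8.95 on the control arrays. The control values all lay inside the range of the TWEAK values. Mlkl averaged 8.97 ± 0.48 under TWEAK and 9.01 ± 0.23 in control cells (SD, n = 3 each), and its difference of -0.03 (SE 0.23) did not pass (limma, Benjamini-Hochberg adjusted p = 0.957). The 95% interval, 0.680-fold to 1.4-fold, is wide enough to hold a change of the size seen for Fadd. Without TWEAK 3 the difference was 0.19, and without TWEAK 2 it was -0.28. The within-array difference of Mlkl minus Ripk3 was -0.84 ± 0.52 under TWEAK and -0.84 ± 0.26 in control cells (two-sided exact permutation p = 1.00, n = 3 each).

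Casp4, the inflammatory caspase, had log2 values of 5.72, 5.98 and 5.65 on the TWEAK arrays and 5.50, 6.07 and 5.34 on the control arrays. Control 2 was the highest of the 6 and the other controls were the lowest. Casp4 averaged 5.78 ± 0.17 under TWEAK and 5.64 ± 0.39 in control cells (SD, n = 3 each), and the difference of 0.15 (SE 0.19) did not pass (limma, Benjamini-Hochberg adjusted p = 0.718). Its 95% interval was 0.822-fold to 1.49-fold. The difference was 0.37 without control 2 and 0.00 without control 3. Casp4 was the only one of the 8 dimmer than the median gene, whose mean was 6.32, so a change could be understated there.

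**Figure D3:**
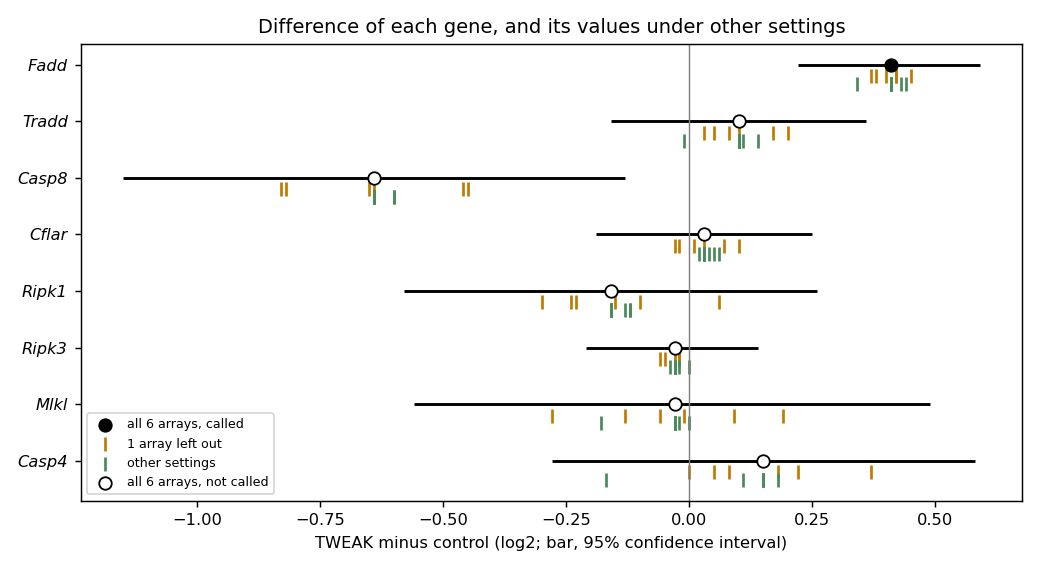
Difference of TWEAK minus control for each of the 8 genes (horizontal axis, log2), with a dot for the value from all 6 arrays, filled where limma called the gene, a bar for the 95% interval, and ticks for the values with 1 array left out and under other settings. Fadd stays between 0.34 and 0.45 and Casp8 between -0.83 and -0.45, while Tradd, Cflar, Ripk1, Ripk3, Mlkl and Casp4 have ticks at or across zero.

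The 8 genes differed widely in how well the arrays of a group repeated each other. The pooled SD within groups was 0.04 for Ripk3 and 0.06 for Fadd, where 3.32% and 10.1% of all genes had a smaller one. It was 0.37 for Mlkl and for Casp8, 0.30 for Casp4 and 0.29 for Ripk1, where 97.4%, 97.2%, 94.3% and 93.8% of genes had a smaller one. The median over all genes was 0.13.

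TWEAK 3 held the lowest of the 6 values for 3 genes (Casp8, Ripk1 and Mlkl) and the highest for 3 others (Fadd, Tradd and Ripk3). Control 3 held the lowest for 3 genes (Fadd, Tradd and Casp4) and the highest for 2 (Casp8 and Cflar). Such extremes were common across the series: TWEAK 3 held the lowest value of 19.3% and the highest of 24.7% of all genes, and control 3 the lowest of 33.1% and the highest of 19.2%. The part of these arrays in the Casp8, Ripk1 and Mlkl values was not tested beyond leaving them out.

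The genes whose profile over the 6 arrays was most like that of Fadd were H2-Q7, Noa1 and Apex1. After each gene was centred on its own mean, their root mean square difference from Fadd was 0.0302, 0.0376 and 0.0388 on the log2 scale. H2-Q7, a class I histocompatibility gene with close copies that make its value uncertain, differed by 0.40 (SE 0.09) between TWEAK and control cells. Noa1, a GTPase of mitochondrial ribosome assembly, differed by 0.40 (SE 0.08), and Apex1, a DNA repair endonuclease, by 0.45 (SE 0.08). Differences near that of Fadd follow from the choice of these genes by their likeness to it on the same arrays.

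Beyond the 8, a wider list of 66 measured genes of the death pathways had 5 that rose and 2 that fell (limma, Benjamini-Hochberg adjusted p under 0.05), where 1.28% of all genes rose and 1.71% fell. The median difference was 0.05, against 0.03 over all genes. At an unadjusted p under 0.05, 15 of the 66 were higher and 10 lower, where 8.15% of all genes were higher and 13.1% lower. The list was chosen with earlier results known, so nothing particular to it is drawn from these counts. With each array centred on its median, 6 were called higher and 1 lower. These counts rested on single arrays: 7 in all became 0 without TWEAK 1, control 2 or control 3, 1 without TWEAK 3, 4 without TWEAK 2 and 12 without control 1. Before adjustment, limma gave 20 to 27 of the 66 genes a p under 0.05 in these fits, against 25 with all arrays. Over all genes the counts before adjustment were 3391 to 5313, against 4688 with all arrays.

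Upstream of the adaptors, 0 of 4 death ligands passed in limma, and 0 had an unadjusted p under 0.05, against 3.00% and 21.3% of all genes. Tnf had 5.89, 5.91 and 5.91 under TWEAK and 5.80, 5.81 and 5.66 in control cells, a difference of 0.15 (SE 0.08), and Fasl, the ligand of Fas, differed by -0.07 (SE 0.08). The TWEAK gene Tnfsf12 had no probe set under its own name. Of all genes 1.28% rose, and 12.9% had TWEAK arrays wholly above the control arrays. Of 7 receptors 1 rose. This was Tnfrsf10b, the TRAIL receptor, whose log2 values were 10.68, 10.21 and 10.62 under TWEAK and 9.97, 9.71 and 9.86 in control cells without overlap, a rise of 0.66 (SE 0.14, Benjamini-Hochberg adjusted p = 0.0485 in limma). Tnfrsf21, death receptor 6, differed by 0.50 (SE 0.13, adjusted p = 0.0700) and the TWEAK receptor Tnfrsf12a by 0.34 (SE 0.20, adjusted p = 0.399).

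Around Ripk1, 3 of 12 ubiquitin and deubiquitinase regulators rose and 0 fell in limma, with a list median of 0.17. Before adjustment 5 were higher and 2 were lower at p under 0.05, where 8.15% and 13.1% of all genes were. At the adjusted threshold 1.28% of all genes rose and 1.71% fell. Tnfaip3, the ubiquitin-editing enzyme A20 that restrains Ripk1 signalling, had 8.71, 8.56 and 8.60 under TWEAK and 8.12, 7.89 and 7.83 in control cells, a rise of 0.68 (SE 0.10). Its partner Tnip1, a ubiquitin-binding protein, had 9.88, 9.70 and 9.74 under TWEAK and 9.19, 8.92 and 8.74 in control cells, a rise of 0.82 (SE 0.12). Birc3, the cIAP2 ubiquitin ligase that modifies Ripk1, had 8.76, 8.77 and 8.0 under TWEAK and 7.62, 7.64 and 7.30 in control cells, a rise of 0.99 (SE 0.21). In limma the Benjamini-Hochberg adjusted p was 0.0272 for Tnfaip3, 0.0276 for Tnip1 and 0.0475 for Birc3. The 2 lower genes, chosen after their values were seen, were the deubiquitinase Cyld, which differed by -0.92 (SE 0.24), and the caspase inhibitor Xiap, which differed by -0.64 (SE 0.17). Their TWEAK arrays lay below all control arrays, as did those of 13.5% of all genes, and neither passed (adjusted p = 0.0763 and 0.0745 in limma). Of the 11 other adaptors and kinases of receptor complexes 0 passed in limma, while before adjustment 1 was higher and 2 were lower at p under 0.05. Traf2, which binds the cIAP proteins, differed by 0.48 (SE 0.13), and the kinase Map3k7 (TAK1) by -0.64 (SE 0.23).

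Of 8 other caspases 1 fell and 0 rose, with a list median of -0.07. Before adjustment 0 were higher and 2 were lower at p under 0.05 in limma. Of all genes 1.71% fell, 13.1% were lower before adjustment and 13.5% had TWEAK arrays wholly below the control arrays. The executioner Casp6 had 8.16, 8.15 and 8.01 under TWEAK and 8.71, 8.93 and 9.06 in control cells, with no overlap, and fell by 0.80 (SE 0.11, Benjamini-Hochberg adjusted p = 0.0230 in limma). Of 8 apoptosome and caspase substrate genes 0 passed in limma, while before adjustment 2 were higher and 1 was lower at p under 0.05. Htra2, a mitochondrial protease that binds inhibitor of apoptosis proteins, differed by 0.65 (SE 0.14, adjusted p = 0.0515 in limma), and Apaf1, the scaffold of the apoptosome, by -0.45 (SE 0.16).

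Near Casp4, 1 of 11 pyroptosis and inflammasome genes rose, Gbp2, by 1.26 (SE 0.26, Benjamini-Hochberg adjusted p = 0.0468 in limma). Gbp2 is a guanylate-binding protein with close copies that make its value uncertain. Before adjustment 4 of the 11 were higher and 1 was lower at p under 0.05 in limma, where 8.15% and 13.1% of all genes were. At the adjusted threshold 1.28% of all genes rose and 1.71% fell, and 12.9% had TWEAK arrays wholly above the control arrays. Gsdmd, the gasdermin D gene whose product caspase-11 cleaves, had 7.93, 8.41 and 8.35 under TWEAK and 7.60, 7.74 and 7.16 in control cells. These did not overlap, and the difference of 0.73 (SE 0.18) did not pass (adjusted p = 0.0642 in limma). Of 5 regulators of necroptosis 1 fell, the ubiquitin ligase Peli1, by 0.73 (SE 0.14, Benjamini-Hochberg adjusted p = 0.0414 in limma). Tlr3, a sensor of double-stranded RNA, differed by -0.42 (SE 0.15). Before adjustment 0 of the 5 were higher and 2 were lower at p under 0.05 in limma.

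**Figure D4:**
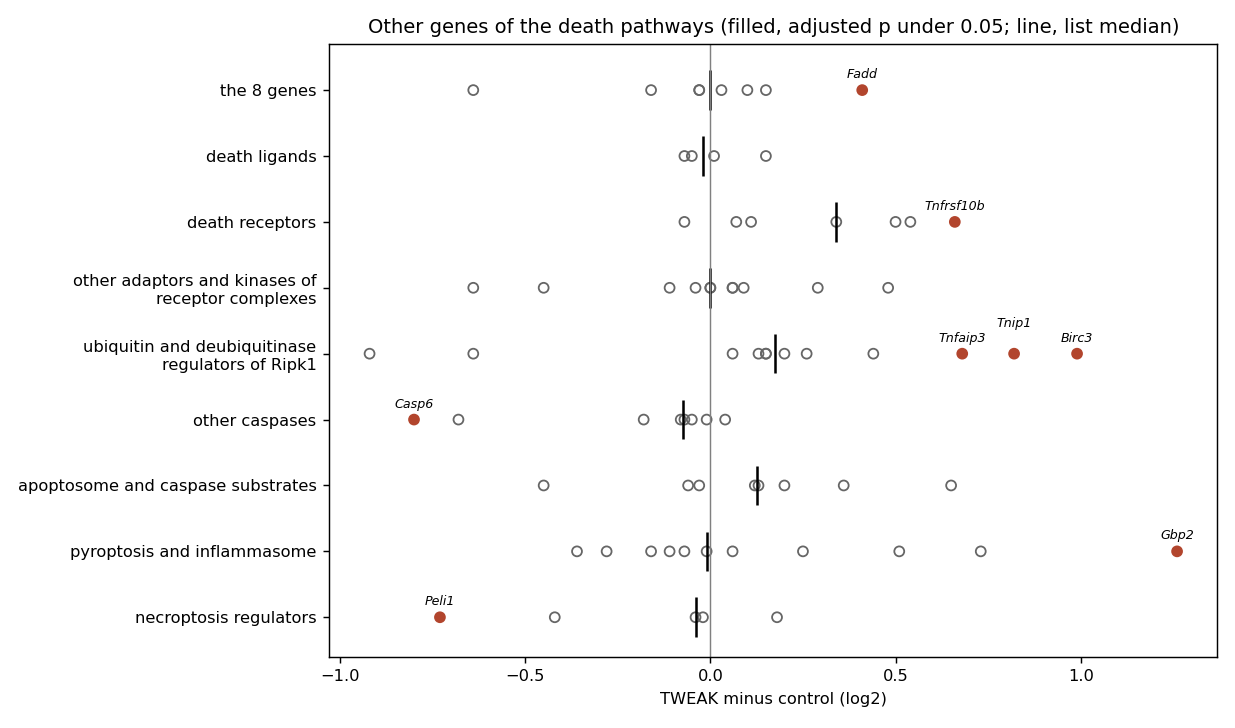
Difference of TWEAK minus control (horizontal axis, log2) for the 8 genes and for the 66 other genes of the death pathways by list, with filled points for genes past an adjusted p of 0.05 and a line at each list's median. The called genes are Fadd, Tnfrsf10b, Tnfaip3, Tnip1, Birc3 and Gbp2, all higher under TWEAK, and Casp6 and Peli1, both lower.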

How the data were processed

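Groups and replicate numbers came from the sample titles. The authors deposited log2 expression values for each probe set. Per the submitters' processing notes these came from RMA, run in Affymetrix Expression Console. No version, annotation release or genome build is named in the sources used here. RMA makes array distributions alike, which would hide a shift that most transcripts share. The deposited workbook and the deposited series values held the same numbers (largest difference 1.78e-15). The same deposited workbook holds the authors' ratio of unlogged means, their p-value and their false discovery rate, per the file headers.

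Of 28361 probe sets, 25465 had 1 gene symbol, 2894 none and 2 several. Symbols were updated through a RefSeq table of GRCm38.p6 (22111 by accession, 1818 by symbol, 625 by synonym, 911 kept), which left 22061 genes, 1845 of them with several probe sets, and no filter on dim ones. Differences were tested with limma 3.58.1 in R 4.3.3 (lmFit and eBayes, two-sided, no replicate block), and p was adjusted by Benjamini-Hochberg across the 22061 genes, with 0.05 as threshold. The code was tested on simulated data. Exact permutation tests used SciPy 1.17.1, and tables and figures Python 3.11.15, pandas 2.3.3 and matplotlib 3.10.9.

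The 8 genes, the lists and the tests were chosen with earlier results of these data known, so no p was adjusted over a list alone. Named beside the 8 genes are every called gene and the 2 with the smallest p of each wider list, Tnfrsf12a, Tnfsf12, and the 3 genes most like the member with the smallest p; 1 gene that this rule names is not reported here. Alternatives were eBayes with trend and robust settings, a replicate block, brighter genes only, the mean of all probe sets, all probe sets 1 by 1, arrays centred on their medians, cyclic loess, array weights, and each array left out. Other Cflar probe sets were added after the data were seen.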

Additional observations from a re-analysis of the deposited data

How the results depend on the processing

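Fadd stayed higher in all 14 alternatives (0.34 to 0.45 on the log2 scale) and was called in 6 of them, with limma's Benjamini-Hochberg adjusted p between 0.0173 and 0.134. Some alternatives could not move the difference of a gene with 1 probe set, such as Fadd (0.41) or Casp8 (-0.64). They were the replicate block, trend and robust settings, brighter genes only, the mean of all probe sets and all probe sets 1 by 1. Of the 8 genes, 1 was called with all arrays, 0 with a replicate block, with trend and robust settings or over all probe sets 1 by 1, 2 with array weights, and 0 to 1 with an array left out. At an unadjusted p under 0.05 in limma, 1 of the 8 passed with the block, 1 to 3 with an array left out, and 2 in each of the other settings. The count over all genes was 661. It was 207 with the block, 1020 among genes brighter than the median gene, 107 over probe sets, 252 after cyclic loess, 3223 with array weights and 1 to 1876 with an array left out. The wider list's 7 became 4 with the block (Tnfrsf10b, Tnfaip3, Tnip1 and Birc3, all higher, while Casp6, Peli1 and Gbp2 were not called), 1 over probe sets, 3 after cyclic loess, 19 with array weights and 0 to 12 with an array left out. Each of the 7 kept its sign throughout. Of 14 alternatives, Casp6, Tnfaip3 and Tnip1 were called in 9, Birc3 and Tnfrsf10b in 8 and Peli1 in 5. Gbp2 was called in 5 of 13.

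The replicate number does not clearly pair the arrays. Deviations from the group means of same-numbered arrays correlated at 0.20, 0.36 and -0.07 across genes for numbers 1, 2 and 3, and TWEAK 3 correlated best with control 1 (0.29). With the replicate block the Fadd difference was 0.41 at a limma Benjamini-Hochberg adjusted p of 0.0795, and that of Cflar minus Casp8 was 0.67.

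Genes near zero turned their sign under some settings, none of them called there by limma. Tradd was -0.01 and Casp4 -0.17 with array weights, Ripk3 and Mlkl were 0.00 with arrays centred on their medians, and Cflar was -0.07 for probe set 10346562. With an array left out, Cflar ranged from -0.03 to 0.10, Ripk1 from -0.30 to 0.06, Mlkl from -0.28 to 0.19 and Casp4 from 0.00 to 0.37. Mlkl minus Ripk3 ranged from -0.27 to 0.25 with an array left out and was 0.02 after cyclic loess. The causes were not tested. Casp4 has no value among the brighter genes. With 3 arrays per group and no measure of signal over background, small changes of dim or variable genes such as Casp4 and Mlkl could go undetected.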
